A study of Mus musculus with 6 samples.

Results

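AMPA receptors carry most fast excitatory transmission in the brain. Each receptor is an assembly of pore-forming subunits encoded by Gria1, Gria2, Gria3 and Gria4, and transmembrane AMPA receptor regulatory proteins (TARPs), encoded by Cacng2, Cacng3, Cacng4, Cacng5, Cacng7 and Cacng8, bind to it, bring it to the synapse and shape its gating. In the cerebellum these receptors serve the parallel fibre and climbing fibre synapses on Purkinje cells, the mossy fibre synapses on granule neurons, and the calcium-permeable receptors of Bergmann glia, the astrocytes that enwrap Purkinje cell dendrites. The 10 genes were taken by symbol from the 48709 genes of a count table, with no cutoff on their values. The list was nevertheless chosen with earlier results of these data known.

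The mRNA of whole cerebellum was sequenced from C57BL/6J mice aged 40 weeks, in 3 wild-type samples and 3 samples from SCA7 140Q/5Q knock-in mice, which carry an Atxn7 allele with 140 glutamine codons beside one with 5. Spinocerebellar ataxia type 7 (SCA7) is caused by an expanded glutamine repeat in ataxin-7, and the series asks how the cerebellar transcriptome differs with it. The labels number the replicates without stating that each is a separate animal. The p-values therefore weigh group differences only against the variation among these samples, and some of that variation may be technical. Whole tissue was used, so every cell type contributed RNA.

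The libraries held 34630391 to 49127673 counts, and the 10 genes together took 0.212% to 0.259% of them, with at least 275 counts for each gene in each library. Of 16699 genes tested over the whole table, 318 passed the threshold, an edgeR adjusted p at or under 0.05. Markers of cerebellar cells were present in every library. Brainstem markers stood apart in 2 libraries, with a summed level of 94.5 and 54.4 CPM (counts scaled to the size of the library) in knock-in replicates 1 and 3 against 16.6 to 23.5 CPM in wild type and 16.7 CPM in knock-in replicate 2. Choroid plexus markers also differed widely between libraries, with sums of 531, 507 and 1910 CPM in wild type, against 277, 26.2 and 1318 CPM in knock-in, lowest in knock-in replicate 2. A fit with the brainstem markers as a covariate is given below. The part of the choroid plexus markers in the results was not tested. The cortical marker Emx1 stayed at or under 0.167 CPM.

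The 4 subunit genes share their structure, and the stretch that sets calcium permeability shows how close they are. The windows below are coding sequence of the pore loop, from exon 11 of Gria1, Gria2 and Gria3 and exon 12 of Gria4, read from GENCODE M21 transcripts on mm10. Capitals mark the codon of the Q/R site, which RNA editing changes in Gria2 transcripts after transcription, so that receptors with that subunit pass little calcium.
Gria1: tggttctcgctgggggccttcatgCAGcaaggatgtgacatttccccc
Gria2: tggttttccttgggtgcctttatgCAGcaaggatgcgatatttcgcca
Gria3: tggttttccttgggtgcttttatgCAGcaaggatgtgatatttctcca
Gria4: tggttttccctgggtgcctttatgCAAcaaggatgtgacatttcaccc
The windows lie on the coding strand at chr11:57243070-57243117 (plus strand), chr3:80706890-80706937 (minus), chrX:41610241-41610288 (plus) and chr9:4464116-4464163 (minus). Gria2 and Gria3 differ at 3 of the 48 bases and Gria1 and Gria2 at 9. Over the whole coding sequence the subunits were 69.9% to 73.1% identical in pairs. Identical windows of 50 bases were counted over the whole annotated transcripts. Gria2 and Gria3 shared 9, Gria2 and Gria4 8, Gria3 and Gria4 4, and Gria1 shared none with the others. The windows may overlap, so these are not counts of separate stretches. The counts do not measure editing.

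The TARPs fall into type I (Cacng2, Cacng3, Cacng4 and Cacng8) and type II (Cacng5 and Cacng7), and the ends of their coding sequences show the split. Capitals mark the last 4 codons before the stop codon, which in type I TARPs encode the tail that anchors the receptor to the PDZ domains of PSD-95 and related scaffolds.
Cacng2: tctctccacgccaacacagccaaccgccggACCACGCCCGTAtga
Cacng3: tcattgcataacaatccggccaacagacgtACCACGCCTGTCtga
Cacng4: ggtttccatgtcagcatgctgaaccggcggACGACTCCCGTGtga
Cacng8: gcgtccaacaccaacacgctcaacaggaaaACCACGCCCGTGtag
Cacng5: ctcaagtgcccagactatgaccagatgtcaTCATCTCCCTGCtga
Cacng7: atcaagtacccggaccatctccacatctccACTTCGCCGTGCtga
Each window is in the last exon of its gene. They lie at chr15:77995149-77995193 (minus) for Cacng2, chr7:122768802-122768846 (plus) for Cacng3, chr11:107734780-107734824 (minus) for Cacng4 and chr7:3415561-3415605 (plus) for Cacng8. The type II windows lie at chr11:107877352-107877396 (minus) for Cacng5 and chr7:3366904-3366948 (plus) for Cacng7. Coding identity was 72.4% between the type II genes, 63.0% to 72.8% among the type I genes and 59.1% to 63.1% across the types. No stretch of 50 bases was shared between any 2 TARPs.

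Levels of different genes can be compared only per length, and they are given here as CPM per kb of annotated exon. Per length, the most abundant of the 10 in wild type was Cacng7, which encodes the type II TARP gamma-7, at 143 ± 7.29 CPM per kb (mean ± SD, n = 3). Gria1 followed at 138 ± 6.43 and Gria4 at 101 ± 3.87 CPM per kb, and the ranges of Cacng7 and Gria1 over the 6 samples overlapped. Cacng2, which encodes stargazin, the TARP whose loss causes ataxia in the stargazer mouse, came next at 29.0 ± 0.95 CPM per kb, with an overlapping range for Cacng5 at 26.9 ± 2.13. Gria3 at 16.2 ± 1.2, Gria2 at 15.9 ± 1.02 and Cacng4 at 12.2 ± 0.11 CPM per kb overlapped in range as well. Cacng3 and Cacng8, TARPs known best from the forebrain, were lowest, at 4.78 ± 0.21 and 2.90 ± 0.38 CPM per kb. The annotated exons of Gria2 span 15548 bases against 2345 for Cacng8, and the length used changes the levels. Per kb of coding sequence Gria2 stood at 93.1 and Gria3 at 60.1 CPM per kb in wild type, with Gria1 at 306 and Gria4 at 236. By the longest transcript Gria3 stood at 30.8 and Gria2 at 23.8 CPM per kb in wild type, with Cacng2 at 29.0 and Cacng5 at 27.8. That placed Gria3 ahead of Cacng2 and Cacng5 in wild type, but ahead of Cacng5 alone in the mean of all 6 samples.

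Of the 4 pore-forming subunits, Gria3 fell in the knock-in samples, and the estimates for Gria1, Gria4 and Gria2 were also negative without passing the threshold. Gria3 (ENSMUSG00000001986, chromosome X, 41400854 to 41678601, plus strand) had 173, 157 and 150.4 CPM in wild type, against 118, 128 and 108 CPM in knock-in. Every knock-in sample was below every wild-type sample. The log2 fold change was -0.44 ± 0.09 (SE) with an edgeR adjusted p of 0.0398. This is 1 called gene among the 10, or 1 of the 4 subunits, where 1.90% of all tested genes were called 1.28% lower and 0.629% higher. In RNA of whole tissue, fewer cells of a type and less RNA per cell cannot be told apart. The call was lost when wild-type replicate 1, 2 or 3 or knock-in replicate 1 or 3 was left out, at edgeR adjusted p values of 0.140, 0.101, 0.0796, 0.159 and 0.149 and log2 fold changes of -0.39, -0.46, -0.49, -0.43 and -0.37. It was also lost when the mean log2 CPM of the 8 brainstem markers tested entered the fit as a covariate. In that fit the log2 fold change was -0.34 and the edgeR adjusted p 0.751, and 0.018% of all genes were called.

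Gria1, which with Gria4 encodes the receptors of Bergmann glia and is also made by Purkinje cells and interneurons, had 854, 854 and 787 CPM in wild type, against 645, 731 and 599.8 CPM in knock-in. The groups did not overlap, the log2 fold change was -0.34 ± 0.09 and the edgeR adjusted p was 0.0855. Gria1 lies on chromosome 11 at 57011387 to 57330244. Gria4, on chromosome 9 at 4417896 to 4796234, is the other calcium-permeable subunit of these glia and is made by granule neurons too. It had 666, 633 and 618 CPM in wild type, against 486, 584 and 467 CPM in knock-in, again without overlap, with a log2 fold change of -0.32 ± 0.09 and an edgeR adjusted p of 0.116. In Gria1, Gria3 and Gria4 alike, knock-in replicate 3 was lowest and knock-in replicate 2 highest of its group. With offsets for GC content and length their log2 fold changes were smaller in size, at -0.29, -0.36 and -0.26.

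Gria2, the edited subunit, had 264, 233 and 243 CPM in wild type, against 239, 231 and 219 CPM in knock-in, and the groups overlapped. Its log2 fold change was -0.10 ± 0.08 with an edgeR adjusted p of 0.523. The estimate was -0.01 with offsets for GC content and length and -0.06 without wild-type replicate 1 or without knock-in replicate 3. Gria2 lies on chromosome 3 at 80681450 to 80802835.

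A different tool drew the line elsewhere for the same estimates. DESeq2 called Gria1, Gria3 and Gria4 lower and Cacng4 higher, 4 of the 10 genes where it called 5.94% of all genes (3.31% lower and 2.63% higher), with DESeq2 adjusted p values of 0.0149, 0.000719, 0.0355 and 0.0214. Without knock-in replicate 2, edgeR called Gria1, Gria3 and Gria4, where 5.04% of all genes were called, at log2 fold changes of -0.42, -0.51 and -0.43. Against wild type, knock-in replicate 2 alone gave -0.17 for Gria1, -0.30 for Gria3 and -0.11 for Gria4, with adjusted p values of 0.662, 0.459 and 0.787. That fit, which called 0.131% of all genes, assumes that a lone sample varies as the wild-type samples do.

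Gria3 was called in 12 of 19 alternative settings, and its adjusted p ranged from 0.000700 to 0.751 over them. It was the only one of the 10 called with DESeq2 size factors in edgeR (1.74% of all genes called), upper quartile scaling (2.56%), a filter at 1 CPM (2.13%), limma-voom (1.66%), robust estimation (2.11%) and offsets for GC content and length (3.89%). With library size alone (3.07%) Cacng4 was called as well. Gria1 and Gria4 were called beside Gria3 without a filter (4.67%), and Cacng4 with them under quality weights (4.47%). The same 4 genes were called with the replicate number as a block in the fit (12.2%). No gene of the 10 was called without wild-type replicate 1, 2 or 3 (0.276%, 0.522% and 0.458% of all genes called) or without knock-in replicate 1 or 3 (0.23% and 0.43%).

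**Figure D1:**
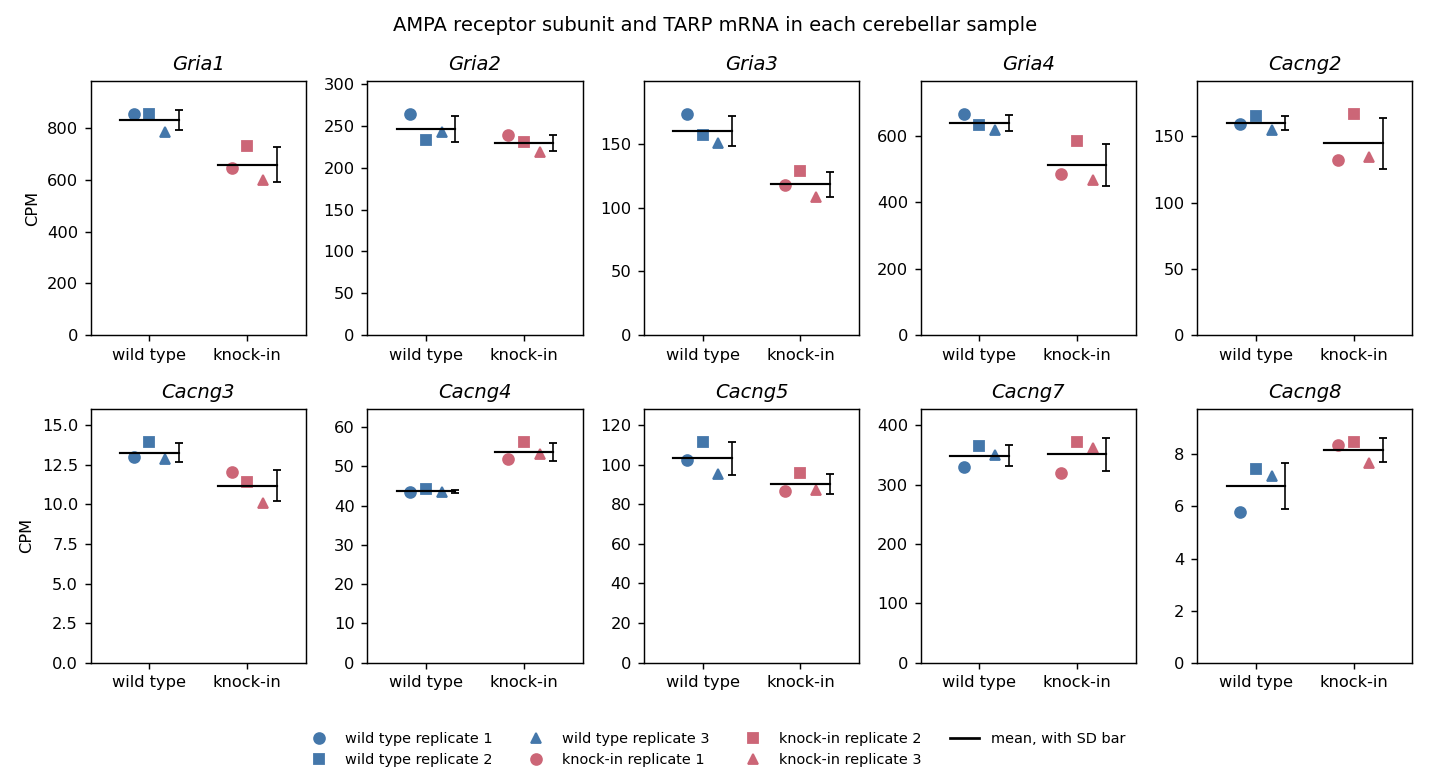
CPM (y axis, from 0) of the 4 AMPA receptor subunit genes and the 6 TARP genes in each wild-type (blue) and knock-in (red) sample, with marker shapes for the replicate number, group means as lines and SD as bars. Every knock-in sample lies below every wild-type sample for Gria1, Gria3, Gria4 and Cacng3, and above for Cacng4 and Cacng8.

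No TARP gene passed the edgeR threshold, and the 6 estimates were split, 3 negative and 3 positive. At an unadjusted edgeR p under 0.05 there were 3 TARPs, where 18.1% of all genes tested were under that level. Among the type I TARPs, Cacng4, which encodes gamma-4, a TARP of the developing brain and of glial cells, had 43.4, 44.1 and 43.5 CPM in wild type, against 51.8, 56.2 and 53.1 CPM in knock-in. The 3 wild-type samples lay within a narrow band and every knock-in sample was above it, with a log2 fold change of 0.30 ± 0.08 and an edgeR adjusted p of 0.0818. With scaling by library size alone Cacng4 was called (0.37, adjusted p 0.0312), and with offsets for GC content and length its estimate was 0.22 (adjusted p 0.145). Marker genes of oligodendrocyte precursors, a glial type, summed to 131 to 179 CPM in wild type, against 203 to 208 CPM in knock-in over the 7 genes. Only Olig1 of these was called higher, where 0.629% of all tested genes were. It had 39.1, 59.1 and 60.7 CPM in wild type, against 86.5, 82.5 and 93.9 CPM in knock-in. The groups overlapped for Pdgfra and Gpr17, at log2 fold changes of -0.14 and -0.01. Their part in the Cacng4 values was not tested.

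Cacng2, on chromosome 15 at 77991748 to 78120028, had 159, 165 and 155 CPM in wild type, against 132 (knock-in replicate 1), 167 and 135 CPM in knock-in. The groups overlapped because knock-in replicate 2 was the highest of all samples, and the log2 fold change was -0.14 ± 0.10 (adjusted p 0.470). Cacng2 shares 323 exonic bases with the antisense gene A730060N03Rik, which had 54 to 116 counts per library against 4833 to 7762 for Cacng2. Cacng3 had 13.0, 13.96 and 12.9 CPM in wild type, against 12.0, 11.4 and 10.1 CPM in knock-in, without overlap, at a log2 fold change of -0.25 ± 0.11 (adjusted p 0.269). Cacng8 had 5.78, 7.42 and 7.18 CPM in wild type, against 8.36, 8.48 and 7.66 CPM in knock-in, without overlap. Its log2 fold change of 0.27 ± 0.13 (adjusted p 0.325) turned to -0.12 with offsets for GC content and length, and at 65.05% GC it is the most GC-rich of the 10.

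Of the type II TARPs, Cacng7 had 330.4, 366 and 350.1 CPM in wild type, against 320.4, 372 and 362 CPM in knock-in. The groups overlapped fully and the estimate was 0.01 ± 0.08 (adjusted p 0.956), or -0.18 with offsets for GC content and length. Cacng5 had 103, 112 and 95.3 CPM in wild type, against 86.9, 95.9 and 87.4 CPM in knock-in, with 1 knock-in sample above the lowest wild-type sample and a log2 fold change of -0.20 ± 0.09 (adjusted p 0.262).

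Of the TARP genes, 4 lie in 2 neighbouring pairs. Cacng4 (107732357 to 107794557) and Cacng5 (107874605 to 107915055) are neighbours on chromosome 11, both on the minus strand, with estimates of 0.30 and -0.20. Cacng7 (3332955 to 3368221) and Cacng8 (3390683 to 3415648) lie side by side on the plus strand of chromosome 7, where Cacng6 follows, with estimates of 0.01 and 0.27, or -0.18 and -0.12 with offsets for GC content and length. Cacng1 and Cacng6, gamma subunits of the same family that are not TARPs and are known from skeletal muscle, had at most 4 counts in any library and were not tested.

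Over all 10 genes, 7 estimates were negative and 3 positive, with a median log2 fold change of -0.17, against 0.01 over all genes tested. The groups did not overlap for 6 of the 10, 4 lower and 2 higher, where 23.8% of all tested genes had no overlap, 11.5% lower and 12.3% higher. The median was -0.33 for the 4 subunits and -0.07 for the 6 TARPs.

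**Figure D2:**
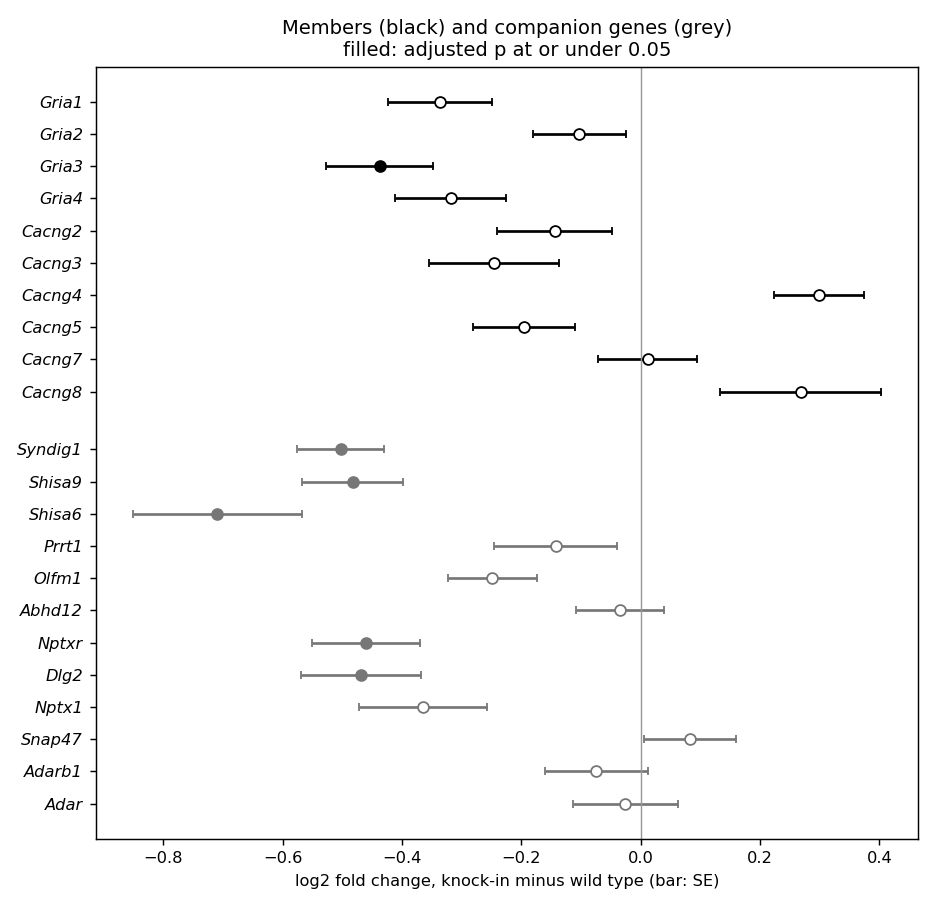
Log2 fold change of knock-in minus wild type (x axis, bars are the SE) for the 10 genes in black and for the companion genes in grey, with filled points where the edgeR adjusted p was at or under 0.05. Gria3 is the filled black point at -0.44, and Shisa6 lies farthest to the left at -0.71.

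The make-up of each family was compared per length, and no composition value passed its test. The summed TARP level per 100 of summed subunit level was 74.7, 84.1 and 83.5 in the wild-type samples and 94.9, 95.8 and 109.5 in the knock-in samples, a mean of 80.8 ± 5.28 against 100.1 ± 8.21 (SD, n = 3 each). Every knock-in sample was above every wild-type sample, by an exact two-sided permutation test at p = 0.1, the smallest that 3 against 3 samples allow, and adjusted p = 0.183 over the 11 composition values. The TARP transcripts hold 51.2% to 65.05% GC and the subunit transcripts 36.8% to 48.5%, and the Spearman rho between GC content and the log2 fold change was 0.32 over 16656 genes, which do not count as replicates. With offsets for GC content and length the wild-type ratios were 88.8, 86.6 and 83.0 and the knock-in ratios 92.8, 92.9 and 94.4, so the difference of 19.3 became 7.24, still without overlap (exact p = 0.1). Per kb of coding sequence the ratio was 112 ± 7.21 in wild type and 135 ± 9.80 in knock-in.

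Among the subunits, Gria1 made up 50.8% ± 0.93 of the summed per-length level in wild type and 50.2% ± 0.28 in knock-in, and Gria4 37.4% ± 0.51 and 37.4% ± 0.92. Gria2 made up 6.04%, 5.50% and 6.02% in wild type, against 7.27%, 6.16% and 7.10% in knock-in. Gria3 made up 6.24%, 5.83% and 5.89% against 5.67%, 5.39% and 5.54%. The shares of Gria2 and Gria3 did not overlap between the groups, Gria2 being higher and Gria3 lower in knock-in (exact p = 0.1 and adjusted p = 0.183 each). With offsets for GC content and length both kept their sign and overlapped, at differences of 1.19 and -0.36 percentage points against 0.99 and -0.45.

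Among the TARPs, Cacng7 made up 65.3% ± 0.97 of the summed per-length level in wild type and 66.6% ± 1.47 in knock-in. Cacng4 did not pass the edgeR threshold, and its share was 5.77%, 5.38% and 5.63% in wild type, against 7.23%, 6.80% and 6.83% in knock-in, a difference of 1.36 percentage points, or 1.62 with the offsets, without overlap in either (exact p = 0.1). The share of Cacng5 was 12.3% ± 0.70 and 10.9% ± 0.41, again without overlap, and its difference of -1.43 percentage points became -0.52 with the offsets. The share of stargazin's gene Cacng2 was 13.3% ± 0.40 and 12.1% ± 0.92, with overlap (exact p = 0.2), and its difference of -1.17 turned to 0.0666 with the offsets.

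**Figure D3:**
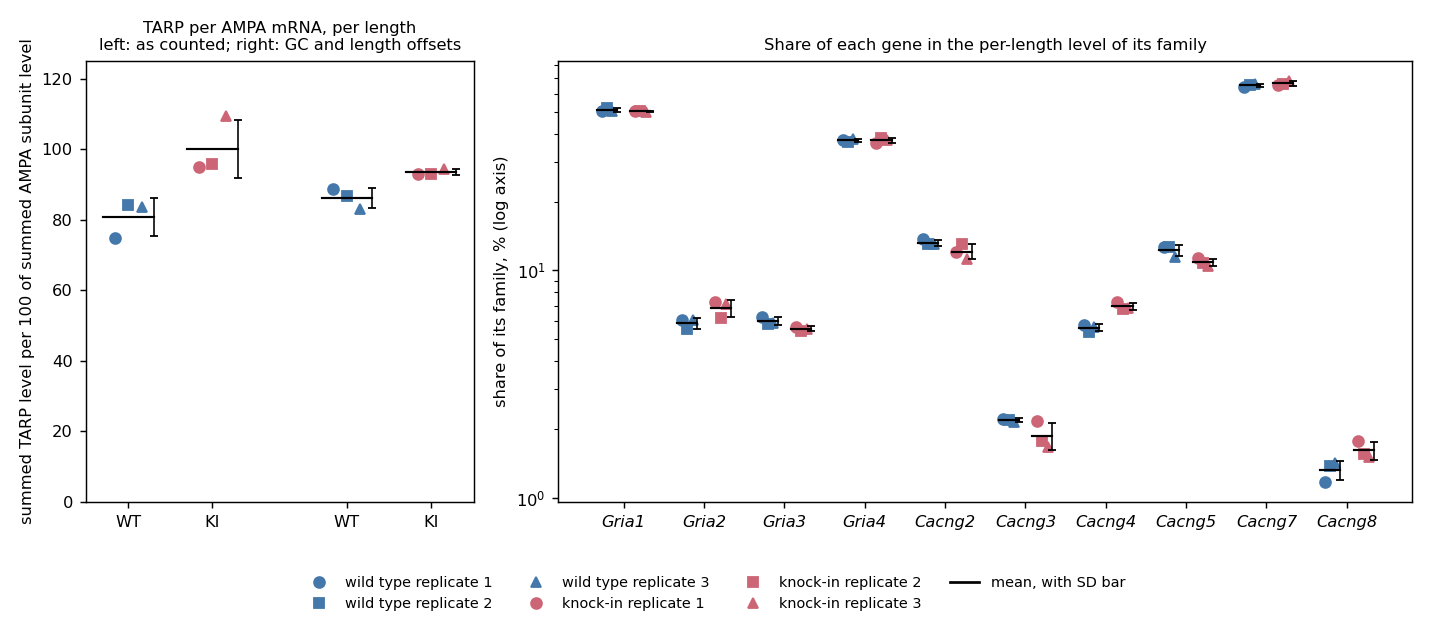
Left, summed TARP level per 100 of summed AMPA subunit level in CPM per kb, in each sample as counted and with offsets for GC content and length; right, share of each gene in the per-length level of its family in percent, on a log axis. Blue is wild type and red knock-in, with lines at the means and bars for the SD; the ratio is higher in all 3 knock-in samples on both scales, but the gap of 19.3 shrinks to 7.24 with the offsets.

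AMPA receptors also bind auxiliary subunits outside the TARP family, and 3 of 10 such genes fell and none rose, where 1.28% of all tested genes were called lower and 0.629% higher. Their median log2 fold change was -0.14. Shisa6, which encodes a membrane protein that holds AMPA receptors at synapses (chromosome 11, 66211725 to 66525964, minus strand), had 269, 279.7 and 222 CPM in wild type, against 140.1, 195 and 136 CPM in knock-in. It fell by 0.71 ± 0.14 on the log2 scale (edgeR adjusted p 0.0355). Shisa9, which encodes the auxiliary subunit CKAMP44 (chromosome 16, 11984113 to 12270902, plus strand), had 46.5, 50.5 and 48.4 CPM in wild type, against 32.6, 37.2 and 34.2 CPM in knock-in, with a log2 fold change of -0.48 ± 0.08 (adjusted p 0.0222). Syndig1, which encodes a transmembrane protein that associates with AMPA receptors at developing synapses (chromosome 2, 149829211 to 150004392, plus strand), had 177, 175 and 173 CPM in wild type, against 117, 124.8 and 129 CPM in knock-in. It fell by 0.50 ± 0.07 (adjusted p 0.0114), and in all 3 genes the groups did not overlap. Prrt1, another abundant gene of this list, had an estimate of -0.14 ± 0.10 (adjusted p 0.507), and with offsets for GC content and length it was called lower at -0.46 (adjusted p 0.0158).

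All 3 calls were lost with the brainstem marker covariate, at edgeR adjusted p values of 0.649 for Syndig1, 0.729 for Shisa9 and 0.751 for Shisa6. Several were also lost without single libraries. Without wild-type replicate 1, 2 or 3 the edgeR adjusted p was 0.0509, 0.0467 and 0.0520 for Syndig1, 0.0650, 0.0894 and 0.0774 for Shisa9 and 0.146, 0.106 and 0.0581 for Shisa6. Without knock-in replicate 1, 2 or 3 it was 0.0924, 0.00802 and 0.0355 for Syndig1, 0.125, 0.00909 and 0.0860 for Shisa9 and 0.152, 0.00150 and 0.142 for Shisa6. Log2 fold changes without each library lay between -0.53 and -0.46 for Syndig1, -0.54 and -0.43 for Shisa9 and -0.90 and -0.61 for Shisa6. Knock-in replicate 2 alone gave -0.47, -0.36 and -0.38.

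Of 23 genes for AMPA receptor trafficking and scaffolds, 2 fell and none rose, beside the same shares of all genes, with a median of -0.04. Nptxr, the neuronal pentraxin receptor that gathers AMPA receptors at synapses, had 297.7, 348 and 300.6 CPM in wild type, against 217, 249 and 222 CPM in knock-in, a log2 fold change of -0.46 ± 0.09 (edgeR adjusted p 0.0330). Dlg2, which encodes the scaffold PSD-93, had 485, 495 and 429.8 CPM in wild type, against 330.3, 385 and 303 CPM in knock-in, a log2 fold change of -0.47 ± 0.10 (adjusted p 0.0466). Both calls were lost when wild-type replicate 1, 2 or 3 or knock-in replicate 1 or 3 was left out, at adjusted p values of 0.0909, 0.111, 0.0813, 0.157 and 0.129 for Nptxr and 0.168, 0.133, 0.0752, 0.181 and 0.166 for Dlg2. With the brainstem covariate the edgeR adjusted p was 0.741 and 0.751, and with DESeq2 size factors in edgeR Dlg2 was at 0.0532. Nptx1, a secreted pentraxin, had 845 ± 85.8 and 656 ± 86.0 CPM (edgeR adjusted p 0.118). It was called lower in 6 of 19 alternative settings, among them DESeq2 (DESeq2 adjusted p 0.0327). DESeq2 also called Ap2b1 and Neto2 lower (DESeq2 adjusted p 0.0464 and 0.0455) and Ap2s1 higher (DESeq2 adjusted p 0.0174). In edgeR Ap2s1 was higher without overlap at 0.43 ± 0.12 (edgeR adjusted p 0.0976). Snap47, a protein of AMPA receptor exocytosis, had an estimate of 0.08 ± 0.08.

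None of 8 genes for receptor assembly in the endoplasmic reticulum and none of 3 RNA editing genes passed the edgeR threshold, with medians of -0.06 and -0.03. At an unadjusted edgeR p under 0.05 there were 2 and 0 of them, where 18.1% of all genes tested were under that level. Olfm1, a secreted protein found in AMPA receptor complexes, had 541 ± 14.3 and 456 ± 27.2 CPM (edgeR adjusted p 0.125). It was called lower in 5 of 19 alternative settings, among them DESeq2 (DESeq2 adjusted p 0.0411) and the offsets for GC content and length (-0.35, adjusted p 0.0434). Cpt1c of the same list was higher without overlap, at 0.33 ± 0.09 (edgeR adjusted p 0.0930), and DESeq2 called it higher (DESeq2 adjusted p 0.0270). Abhd12 had an estimate of -0.04 ± 0.07. Adarb1, the enzyme that edits the Q/R site of Gria2, had 423 ± 26.7 and 402 ± 34.5 CPM (adjusted p 0.693), and Adar 203 ± 16.2 and 199 ± 15.2 CPM (adjusted p 0.906).

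Summed markers of Purkinje cells, Bergmann glia, granule neurons, astrocytes and interneurons were also lower in every knock-in sample than in any wild-type sample. This did not hold for every cell type. The oligodendrocyte precursor sum was higher in every knock-in sample, at 203 to 208 against 131 to 179 CPM. The sums of mature oligodendrocyte and of microglia markers overlapped between the groups. A sum follows its most abundant genes, such as Itpr1, Car8 and Rgs8 of the Purkinje cell markers, at 5342, 2870 and 2240 CPM in wild type. Not every marker was lower. Estimates were positive for 2 Purkinje cell, 2 granule neuron, 1 interneuron, 1 astrocyte and 0 Bergmann glia markers. The counts of called markers below stand beside 1.28% of all tested genes called lower. The 12 Purkinje cell markers, 6 of them called lower, summed to 13819 to 15635 CPM in wild type, against 9153 to 10934 CPM in knock-in. The 8 Bergmann glia markers, 1 called lower, summed to 3533 to 3741 and 2874 to 3258 CPM. The 12 granule neuron markers, 1 called lower, summed to 5779 to 6409 and 4711 to 5631 CPM. The 7 astrocyte markers, 3 called lower, summed to 2097 to 2291 and 1426 to 1722 CPM. The 9 interneuron markers, none called by edgeR, summed to 2326 to 2512 and 2066 to 2309 CPM. Of them 5 had an unadjusted edgeR p under 0.05, where 18.1% of all genes tested were under that level. In comparison the 4 subunits summed to 1798 to 1957 CPM in wild type, against 1394 to 1675 CPM in knock-in, and the 6 TARPs to 654 to 708 and 612 to 711 CPM. The median log2 fold change was -0.44 for the Purkinje cell, -0.22 for the Bergmann glia, -0.49 for the astrocyte, -0.16 for the granule neuron and -0.25 for the interneuron markers. Knock-in replicate 2 was the highest of its group in the sums of the 5 marker lists that were lower, as in Gria1, Gria3 and Gria4. The part of these cell types in the Gria values was not tested.

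**Figure D4:**
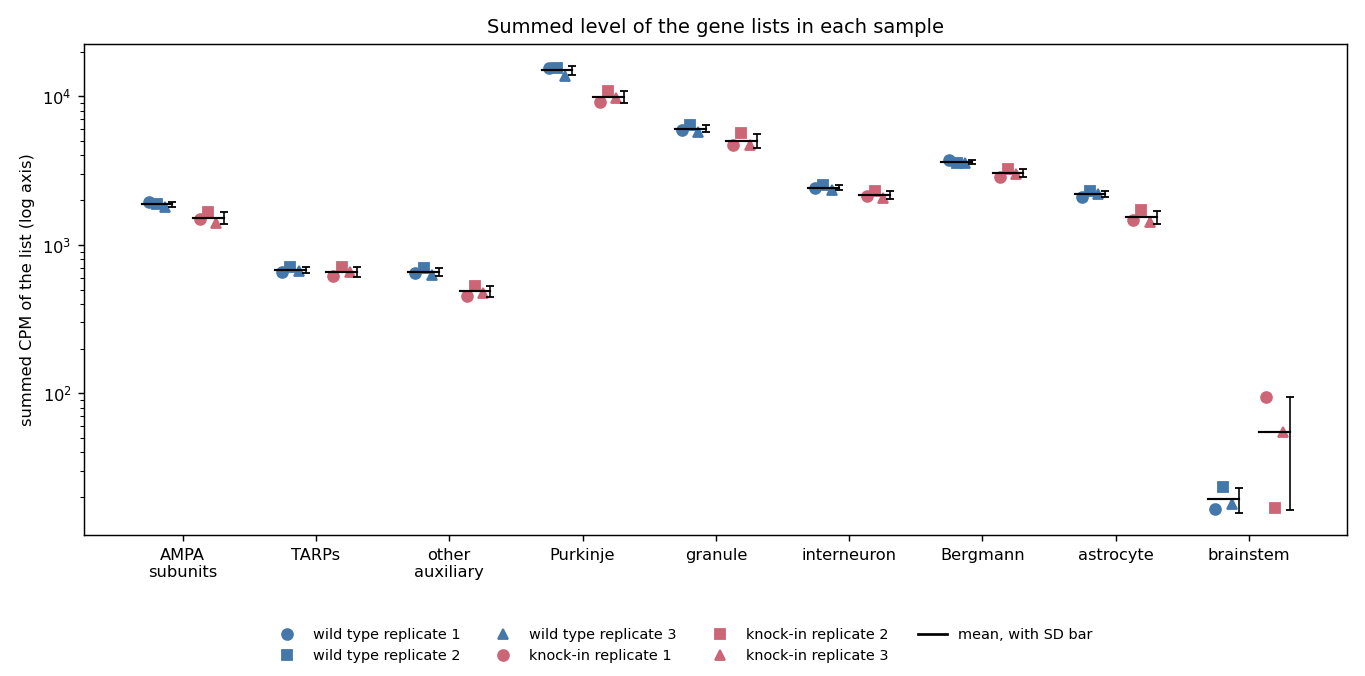
Summed CPM (log axis) of the AMPA subunits, TARPs, other auxiliary subunits and 6 marker lists in each sample, blue for wild type and red for knock-in, with lines at the means and bars for the SD. The subunit sum is lower in all 3 knock-in samples (1394 to 1675 against 1798 to 1957 CPM) while the TARP sums overlap, and the brainstem sum is raised in knock-in replicates 1 and 3.

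Across the 6 samples, the genes whose log2 CPM followed Gria3 most closely among 11325 protein-coding genes were Kpna1, Tmem127 and Ccdc190, with a Pearson r of 0.997, 0.997 and 0.996. Among the candidates 49 had an r above 0.98, so the ranking among them carries little information at 6 samples that share libraries and differ by genotype. Their own log2 fold changes were -0.23, -0.10 and -0.34, none of them called.

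**Figure D5:**
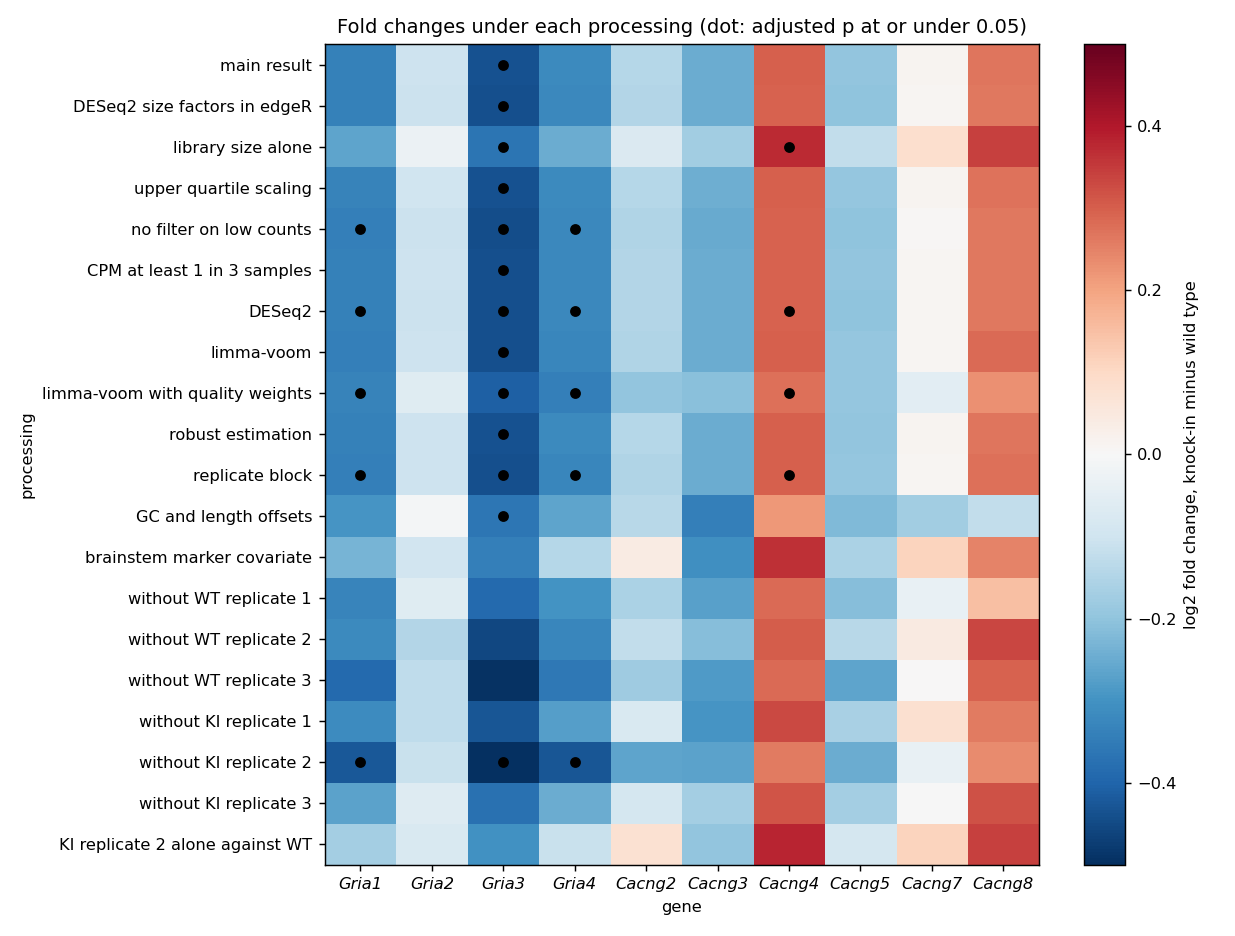
Log2 fold change of each of the 10 genes (columns) under the main processing and 19 alternatives (rows), from blue for lower to red for higher in knock-in, with a dot where the adjusted p was at or under 0.05. Gria1, Gria2, Gria3, Gria4, Cacng3 and Cacng5 are blue and Cacng4 is red in every row, and Gria3 carries a dot in 12 of the 19 alternatives.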

How the data were processed

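The authors deposited one table of raw counts, with a row for each Ensembl identifier, counted by HTSeq 0.6.1 after alignment with TopHat2 2.0.14 and Bowtie2 2.1.0 to mm10, per the submitters' processing notes. Stranded libraries of polyadenylated RNA were made, per the labels' protocols, while the sources used here give neither the strand setting of the counting nor the annotation release. Symbols, coordinates, lengths and coding sequences came from GENCODE M21, which matched 48349 identifiers. The remaining 360 held 0.0503% of counts.

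Knock-in was compared with wild type with edgeR 4.0.16 (filterByExpr with minimum count 10, TMM scaling, quasi-likelihood F test, genotype only, Benjamini-Hochberg over 16699 genes). The SE is the absolute log2 fold change divided by the square root of F. CPM uses the TMM-scaled library size. Composition values were compared with exact permutation tests. The 10 genes, the lists and the tests were chosen with earlier results of these data known. Companion genes were named by a rule: up to 4 called genes and the 2 most abundant per length in each list, and for each called gene of the 10 the 3 genes with the highest correlation. Olig1, Pdgfra, Gpr17, Emx1, Slc6a2, Th, Hoxa5, Hoxb5, Hoxb3, Itpr1, Car8, Rgs8, Cpt1c, Ap2s1, Ap2b1 and Neto2 were named after their values were seen. Pairs of replicates differed by more than sampling noise (chi-square per degree of freedom at least 14.0). On simulated counts for this comparison with a shared dispersion and 16501 genes, the test called 10% of genes changed by 1.25-fold, 71.7% by 1.5-fold and 100% by 2-fold. Alternatives used DESeq2 1.42.0 and limma 3.58.1.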

Additional observations from a re-analysis of the deposited data

How the results depend on the processing

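A depth of 34630391 to 49127673 counts and 3 samples a group leave small changes mostly uncalled, and no composition value could pass 0.05. The number of genes called was 318, and it was 513 with library size alone (190 lower and 323 higher, against 213 and 105), 1303 without a filter, 934 with DESeq2, 746 with quality weights, 2034 (12.2%) with the replicate block, 650 with GC and length offsets, 3 with the brainstem covariate, 721 and 42 at adjusted p thresholds of 0.1 and 0.01, and 39 to 858 with 1 library left out. Of the 10 genes 1 was called, against 2, 3, 4, 4 and 4 with library size alone, no filter, DESeq2, quality weights and the replicate block, 0 with the brainstem covariate, 3 and 0 at thresholds of 0.1 and 0.01, and 0 to 3 with 1 library left out. Knock-in replicate 2 alone, chosen after seeing the data as were the offsets for the composition values, gave 23 and 0. Equal replicate numbers were not taken as pairs, because the labels do not state a pairing. Samples of one number correlated in their deviations from the group means at 0.05, 0.25 and 0.40. Samples of unlike number correlated at -0.34 to 0.07. Every knock-in sample and wild-type replicates 2 and 3 correlated best with their own number. Only wild-type replicate 1 did not, at 0.067 with knock-in replicate 2 against 0.054 with knock-in replicate 1. Whether the numbers mark pairs is not known. Signs turned as follows on the log2 scale. Cacng2 was 0.0425 with the brainstem covariate and 0.0778 in knock-in replicate 2 alone. Cacng7 was -0.0532 with quality weights, -0.175 with the offsets, and between -0.0367 and 0.0812 with 1 library left out, and Cacng8 was -0.122 with the offsets. Prrt1 was 0.00916 in knock-in replicate 2 alone and Abhd12 0.0388 with library size alone. With the brainstem covariate and in knock-in replicate 2 alone, Snap47 was -0.0372 and -0.0143 and Adarb1 0.0177 and 0.0785. Adar was 0.0491 with library size alone, 0.0031 with quality weights, 0.00858 in knock-in replicate 2 alone and between -0.0778 and 0.0382 with 1 library left out. The share of Gria4 differed by -0.00948 and -0.377 percentage points per longest transcript and coding length, and by -0.475 to 0.444 with 1 library left out. With the offsets the share of Cacng2 differed by 0.0666 and that of Cacng7 by -0.949. The cause of these turns was not tested.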
